A study of Mus musculus with 6 samples.

Results

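The D and E cyclins and the CDK inhibitors other than Cdkn1a were followed in As4.1 cells, by 22 probe sets of 10 genes among the 45101 probe sets of the array. A probe set was taken where the array annotation gave 1 of these 10 genes and no other gene. Ccnd2 had 7 probe sets, Ccnd1 and Ccnd3 had 3 each, Ccne1 and Cdkn1b had 2 each, and Ccne2, Cdkn1c, Cdkn2a, Cdkn2b and Cdkn2c had 1 each. As4.1 is a renin-expressing mouse line derived from a kidney tumour that arose under SV40 T antigen driven by a renin promoter, so all 3 groups share that oncoprotein. The groups were cells given an interleukin, cells given hydrogen peroxide and cells given vehicle, with 2 separate cultures and 2 Affymetrix Mouse Genome 430 2.0 arrays in each. The labels do not specify which interleukin was used, the doses or the times, and all cultures come from 1 line.

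Progress through G1 depends on cyclins that switch on kinases and on inhibitors that hold them back. D cyclins, which rise with growth signals, activate Cdk4 and Cdk6, and E cyclins then activate Cdk2. Together these kinases phosphorylate the retinoblastoma family of proteins and release E2F factors, which drive genes of DNA replication. The INK4 inhibitors (Cdkn2a, Cdkn2b and Cdkn2c, encoding p16, p15 and p18) bind Cdk4 and Cdk6, and the Cip/Kip inhibitors (Cdkn1b and Cdkn1c, encoding p27 and p57) bind cyclin-kinase complexes. SV40 T antigen binds both the retinoblastoma family and p53.

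The values are linear MAS5 signals. Every array was brought to the same trimmed mean of 1500.01, so a change of the total RNA per cell is not visible in them. Arrays of 1 group correlated at 0.981 (interleukin), 0.984 (hydrogen peroxide) and 0.987 (vehicle), and those of different groups at 0.9535 to 0.9753. A control for RNA integrity, beta-actin signal at the 3' end over that at the 5' end, stood at 1.46 and 1.55 with interleukin, 1.35 and 1.32 with hydrogen peroxide, and 1.22 and 1.26 with vehicle. The beta-actin ratio moved with the groups. The same ratio for Gapdh varied less, at 0.847 and 0.873 with interleukin, 0.844 and 0.836 with hydrogen peroxide, and 0.825 and 0.836 with vehicle. The part of these ratios in the results was not tested. Renin cell markers are not analysed here. Of the 8 smooth muscle and pericyte markers 3 were called higher with interleukin (Acta2, Tagln and Pdgfrb) and 0 with hydrogen peroxide, of 4 tested. The other tested marker, Cspg4, went the other way with interleukin and was not called (log2 change -0.63, adjusted p = 0.351). Myh11, Cnn1, Rgs5 and Des lay below the signal filter. The summed signal of the 8, nearly all of it Acta2 and Pdgfrb, was 32238.3 and 24909.8 with interleukin, 19292.8 and 18888.1 with hydrogen peroxide, and 17264.7 and 16956 with vehicle. Among the leukocyte markers Cd68 was called higher under both treatments, with means of 954.7 with interleukin, 798.9 with hydrogen peroxide and 388.75 with vehicle. The other tested one, Csf1r, was not called with interleukin (log2 change 0.11, adjusted p = 0.803) or hydrogen peroxide (0.30, adjusted p = 0.489). The 6 leukocyte markers, most of it Cd68 and Csf1r, summed to 2015.4 and 1727.9 with interleukin, 1662.8 and 1614.4 with hydrogen peroxide, and 1080.9 and 1184.3 with vehicle. The 6 endothelial markers, nearly all of it Kdr, summed to 8376.3 and 11838.2 with interleukin, 11634.8 and 10841.5 with hydrogen peroxide, and 13423.9 and 15936 with vehicle. The 8 epithelial markers summed to 1117.5 and 1433.2 with interleukin, 1125 and 1097.8 with hydrogen peroxide, and 1378.3 and 1478.5 with vehicle. Kdr was called lower with interleukin (log2 change -0.60, adjusted p = 0.0194). Above the signal filter were Cd68 and Csf1r of the leukocyte markers, Kdr of the endothelial and Epcam and Aqp2 of the epithelial ones, and the other members of those 3 lists on the array, Ptprc, Pecam1 and Cdh1 among them, lay below it. The part of these markers in the results was not tested.

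Of the 22 probe sets 20 were bright enough to be tested, that is, had a geometric mean signal of at least 193.7. Those left out were 1 of Ccnd3 (1438805_at) and 1 of Cdkn1b (1419497_at). A probe set is called where limma's adjusted p, over all 22519 tested probe sets, is below 0.05. Log2 changes are given with limma's standard error, n = 2 arrays per group throughout. With so few arrays, groups often do not overlap. For interleukin against vehicle 59% of all tested probe sets had no overlap, and 13 of the 20 tested members. The shares were 55.3% and 15 of 20 for hydrogen peroxide against vehicle, and 51.7% and 14 of 20 between the treatments. In bulk RNA, fewer cells that express a gene and less of its RNA per cell cannot be told apart.

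**Figure D1:**
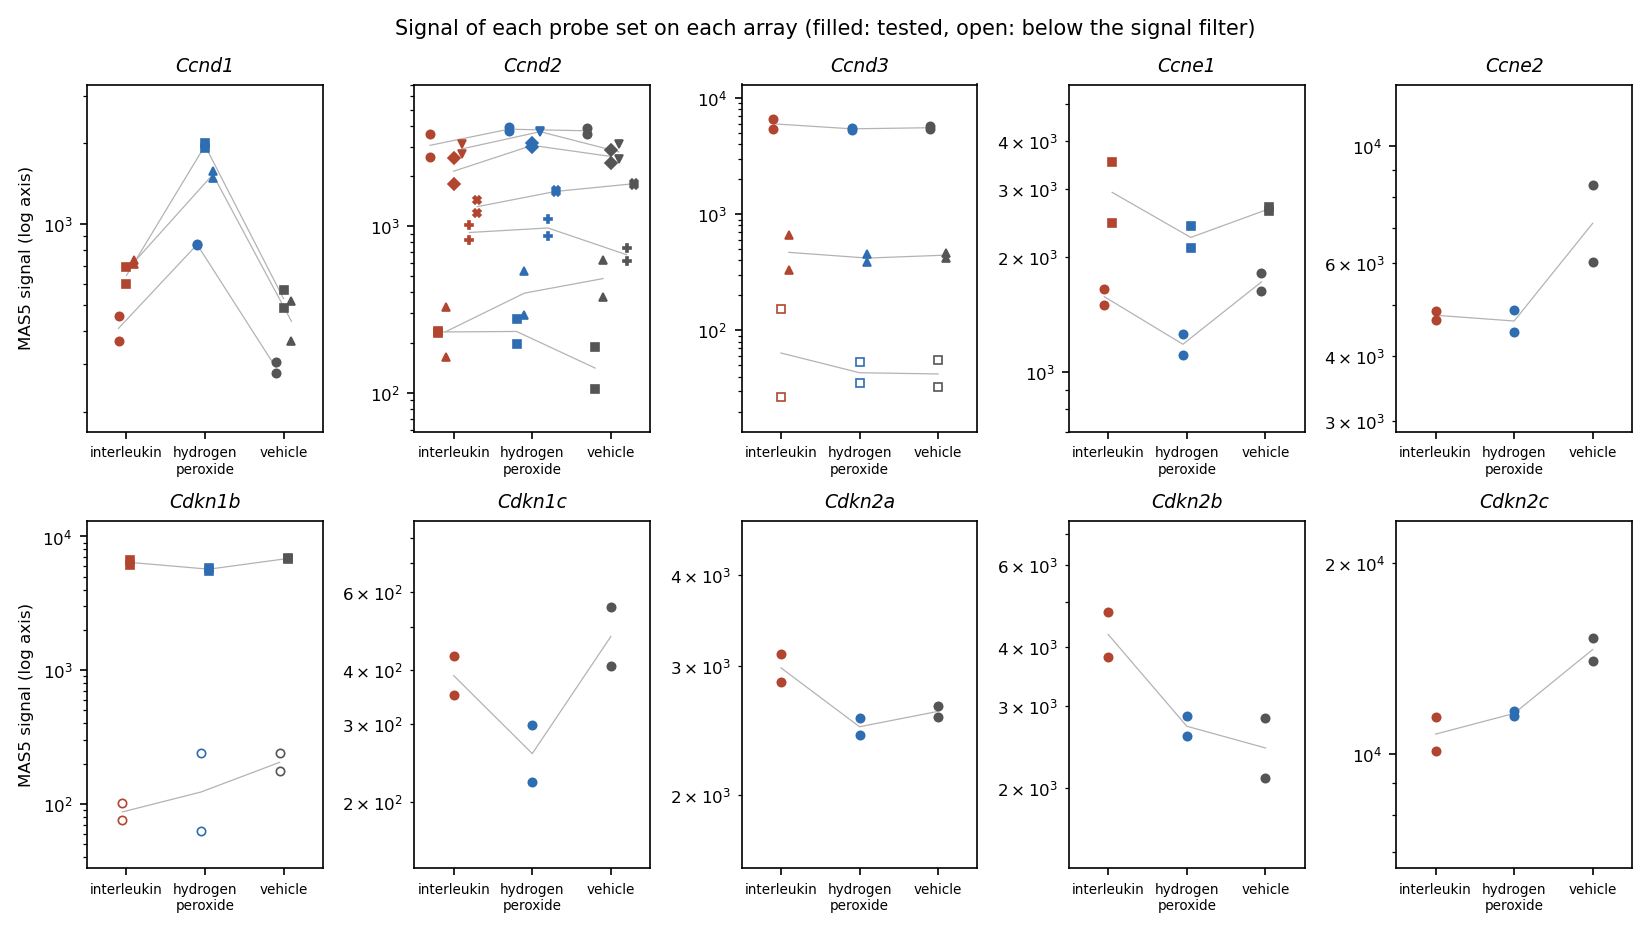
MAS5 signal (log axis) of each probe set of the 10 genes on each of the 6 arrays, with interleukin, hydrogen peroxide and vehicle from left to right in each panel. Points are single arrays, marker shapes separate probe sets, lines join the geometric means, and open points mark probe sets below the signal filter. The 3 Ccnd1 probe sets peak on the hydrogen peroxide arrays, and the single Ccne2 probe set is lower on both sets of treated arrays, while its vehicle arrays lie apart from each other.

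Cyclin D1 was the member with the largest called change, and it was higher with hydrogen peroxide. Probe set 1417420_at gave 1918.3 and 1997.2 on the hydrogen peroxide arrays, against 488.1 and 569.9 on the vehicle arrays. The lowest treated array thus lay far above the highest vehicle array. The fitted log2 change was 1.89 ± 0.18 (3.71-fold, 95% interval 2.82 to 4.89, adjusted p = 0.000569). Probe set 1448698_at gave 1480.4 and 1577.4 on the hydrogen peroxide arrays, against 366.1 and 515.4 on the vehicle arrays, a log2 change of 1.81 ± 0.21 (adjusted p = 0.00138). Probe set 1417419_at gave 845.4 and 831.7, against 307.4 and 278.7 with vehicle, a log2 change of 1.52 ± 0.23 (adjusted p = 0.00594). All 3 Ccnd1 probe sets therefore showed no overlap between the groups, as did 55.3% of all tested probe sets in this comparison. The call of 1417419_at was lost without vehicle replicate 2 (log2 change 1.45, adjusted p = 0.056), and the other calls held with each array left out.

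Interleukin gave a smaller Ccnd1 signal on which the 3 probe sets did not all pass. With interleukin 1448698_at gave 736 and 708.6, against the vehicle values above, and rose by 0.73 ± 0.21 on the log2 scale (adjusted p = 0.0357). On 1417419_at the interleukin arrays gave 455.4 and 367.1 (log2 change 0.48 ± 0.23, adjusted p = 0.197), and on 1417420_at 689.5 and 599.2 (0.29 ± 0.18, adjusted p = 0.318). Interleukin and vehicle arrays did not overlap on any of the 3 probe sets, as on 59% of all tested probe sets, and 1 of 3 passed. That call was lost without vehicle replicate 1 (log2 change 0.49, adjusted p = 0.247), without interleukin replicate 1 (0.71, adjusted p = 0.111) and without interleukin replicate 2 (0.76, adjusted p = 0.0856). It was also lost with no signal filter (adjusted p = 0.0725), with no variance trend (0.0687) and with the 4 arrays of the comparison alone (0.0611).

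Set directly against hydrogen peroxide, interleukin gave a lower Ccnd1 signal on all 3 probe sets. The log2 changes of interleukin over hydrogen peroxide were -1.61 ± 0.18 on 1417420_at (adjusted p = 0.00031), -1.08 ± 0.21 on 1448698_at (adjusted p = 0.00869) and -1.04 ± 0.23 on 1417419_at (adjusted p = 0.0212). The 2 groups did not overlap on any of them, as on 51.7% of all tested probe sets. The call of 1448698_at was lost without hydrogen peroxide replicate 2 (adjusted p = 0.0709). That of 1417419_at was lost without hydrogen peroxide replicate 1 (0.0835), hydrogen peroxide replicate 2 (0.110) or interleukin replicate 2 (0.0956), and with no filter (0.0534).

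The other D cyclins were not called in any of the 3 comparisons. Ccnd2, which encodes cyclin D2, had 7 tested probe sets. On its brightest, 1416122_at, the interleukin arrays gave 3569.2 and 2614.1, the hydrogen peroxide arrays 3700.8 and 3936.6, and the vehicle arrays 3586.2 and 3886.5. The interleukin arrays lay apart from each other and both below the vehicle arrays, and the hydrogen peroxide and vehicle arrays overlapped. Over the 7 probe sets the log2 change ran from -1.06 to 0.72 with interleukin and from -0.29 to 0.73 with hydrogen peroxide, with 4 of 7 below 0 under interleukin and 2 of 7 under hydrogen peroxide. The probe sets of Ccnd2 therefore disagree in sign. Both upper ends, 0.72 and 0.73, were on the dim 1416123_at. Its vehicle arrays gave 188.8 and 104.9, below the 193.7 of the signal filter, which it passed through the treated arrays. The largest interleukin change was on the dim 1416124_at (-1.06 ± 0.42, adjusted p = 0.116), and the smallest adjusted p was 0.0615, on 1455956_x_at (-0.46 ± 0.15). The suffixes _x_at and _s_at mark probe sets that can match more than 1 transcript.

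Without interleukin replicate 1 the Ccnd2 probe sets 1416122_at and 1455956_x_at passed against vehicle, and 1416122_at and 1430127_a_at passed against hydrogen peroxide, all of them lower with interleukin. Probe set 1455956_x_at also passed under a stricter signal filter. With hydrogen peroxide the smallest adjusted p was 0.114, on 1434745_at, with 3660.2 and 3717.2 against 2515.4 and 3097.9 with vehicle (log2 change 0.40 ± 0.14).

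Ccnd3, which encodes cyclin D3, gave 5438.5 and 6607.4 with interleukin, 5557.3 and 5299.8 with hydrogen peroxide, and 5380.5 and 5717.3 with vehicle on 1415907_at. All 3 groups overlapped. The log2 change was 0.11 (95% interval -0.15 to 0.37) with interleukin and -0.03 (-0.29 to 0.23) with hydrogen peroxide. The dimmer 1444323_at changed by 0.08 and -0.08 with wider intervals, and the untested 1438805_at ranged from 26.5 to 154.2 over the 6 arrays.

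Of the E cyclins, Ccne2 (cyclin E2) was called lower under both treatments, which share their vehicle arrays. Probe set 1422535_at gave 4865.5 and 4679.3 with interleukin, 4876.4 and 4439.7 with hydrogen peroxide, and 8448.1 and 6022 with vehicle. All 4 treated arrays lay below both vehicle arrays, which differed widely from each other. The log2 change was -0.58 ± 0.15 with interleukin (adjusted p = 0.0245) and -0.62 ± 0.15 with hydrogen peroxide (adjusted p = 0.0391). Interleukin over hydrogen peroxide gave 0.04 (95% interval -0.29 to 0.37, adjusted p = 0.914).

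The size of the Ccne2 change depended on the vehicle array used. Without vehicle replicate 1 it was -0.34 with interleukin (adjusted p = 0.223) and -0.37 with hydrogen peroxide (adjusted p = 0.262), and neither passed. Without vehicle replicate 2 it was -0.82 and -0.86 (adjusted p = 0.0089 and 0.0261). The interleukin call was also lost without interleukin replicate 1 (0.0709), interleukin replicate 2 (0.0917) and with no variance trend (0.114). The hydrogen peroxide call was also lost without hydrogen peroxide replicate 1 (0.111), hydrogen peroxide replicate 2 (0.147), with no filter (0.0774) and with no variance trend (0.169).

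Ccne1 (cyclin E1) was not called. On 1416492_at the hydrogen peroxide arrays gave 1258.9 and 1112.1, against 1812.4 and 1632.4 on the vehicle arrays, and the interleukin arrays gave 1499 and 1652.6. Hydrogen peroxide and vehicle did not overlap, but the log2 change of -0.54 ± 0.15 missed the threshold (adjusted p = 0.064). It passed when each array was centred on its 75th percentile (adjusted p = 0.046). With interleukin the log2 change was -0.13 (95% interval -0.46 to 0.21). Probe set 1441910_x_at changed by 0.14 with interleukin and -0.25 with hydrogen peroxide, and its interleukin arrays gave 2448.7 and 3536.9. Without interleukin replicate 1 it was called higher with interleukin than with hydrogen peroxide.

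Among the INK4 inhibitors, Cdkn2b rose with interleukin and not detectably with hydrogen peroxide. Probe set 1449152_at gave 4766.8 and 3811.7 with interleukin, 2853.2 and 2583.6 with hydrogen peroxide, and 2822.9 and 2109.4 with vehicle. Both interleukin arrays lay above all 4 others, and the hydrogen peroxide and vehicle arrays overlapped. Against vehicle the interleukin change was 0.80 ± 0.17 (1.75-fold, 95% interval 1.36 to 2.25, adjusted p = 0.00846), and the hydrogen peroxide change was 0.15 ± 0.17 (95% interval -0.21 to 0.52, adjusted p = 0.633). The direct test of interleukin over hydrogen peroxide gave 0.65 ± 0.17 (adjusted p = 0.035).

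The Cdkn2b call against vehicle was lost without vehicle replicate 2 (log2 change 0.59, adjusted p = 0.09), without interleukin replicate 1 (0.64, adjusted p = 0.0589) and with no variance trend (adjusted p = 0.0643). The direct call was lost without interleukin replicate 1 (0.49, adjusted p = 0.147), hydrogen peroxide replicate 1 (0.72, adjusted p = 0.0696) or hydrogen peroxide replicate 2 (0.58, adjusted p = 0.191). It was also lost with no filter (0.0642) and with no variance trend (0.145).

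Cdkn2a lies beside Cdkn2b on chromosome 4, on the same strand, and encodes p16 and, from another start and reading frame, Arf, which acts on Mdm2 and p53. Its probe set 1450140_a_at does not separate the 2 products. It gave 3118 and 2858.6 with interleukin, 2415.6 and 2548.3 with hydrogen peroxide, and 2559.7 and 2649.3 with vehicle. The interleukin arrays lay above the vehicle arrays and the hydrogen peroxide arrays below them, but neither passed, at log2 changes of 0.20 (95% interval -0.07 to 0.47, adjusted p = 0.311) and -0.07 (-0.34 to 0.20, adjusted p = 0.788). Whether Cdkn2b and Cdkn2a differed in their response was not tested.

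Cdkn2c (p18) was called lower with interleukin. Probe set 1416868_at gave 10091.1 and 11422.1 with interleukin, 11474.4 and 11679.8 with hydrogen peroxide, and 14014.1 and 15222.2 with vehicle. All treated arrays lay below both vehicle arrays. The interleukin change was -0.44 ± 0.10 (adjusted p = 0.0107), and the hydrogen peroxide change of -0.34 ± 0.10 missed the threshold (adjusted p = 0.0688). Interleukin over hydrogen peroxide gave -0.11 ± 0.10 (adjusted p = 0.540). The interleukin call was lost without vehicle replicate 2 (-0.38, adjusted p = 0.112), interleukin replicate 1 (-0.35, adjusted p = 0.0525) and with no variance trend (0.0859). The hydrogen peroxide change passed under 5 alternatives: 75th percentile centring (adjusted p = 0.047), the 4 arrays of the comparison alone (0.0424), 1 probe set per gene (0.0414), and without interleukin replicate 1 (0.0403) or 2 (0.0426).

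The Cip/Kip inhibitors were not called. Cdkn1b (p27) gave 6669.3 and 6126.2 with interleukin, 5544.8 and 5845.9 with hydrogen peroxide, and 6877.7 and 6802.5 with vehicle on 1434045_at. The treated arrays lay below the vehicle arrays in both cases. The log2 changes were -0.10 (95% interval -0.32 to 0.13, adjusted p = 0.559) and -0.26 (-0.49 to -0.04, adjusted p = 0.153). The second Cdkn1b probe set, 1419497_at, was too dim to test, with 62.7 to 241.1 over the 6 arrays. Cdkn1c (p57) gave 349.5 and 429.9 with interleukin, 299.2 and 221.4 with hydrogen peroxide, and 407.9 and 555.5 with vehicle. The hydrogen peroxide arrays did not overlap the vehicle arrays, at a log2 change of -0.89 ± 0.30 (adjusted p = 0.108), and the interleukin arrays did, at -0.30 ± 0.30 (adjusted p = 0.545).

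**Figure D2:**
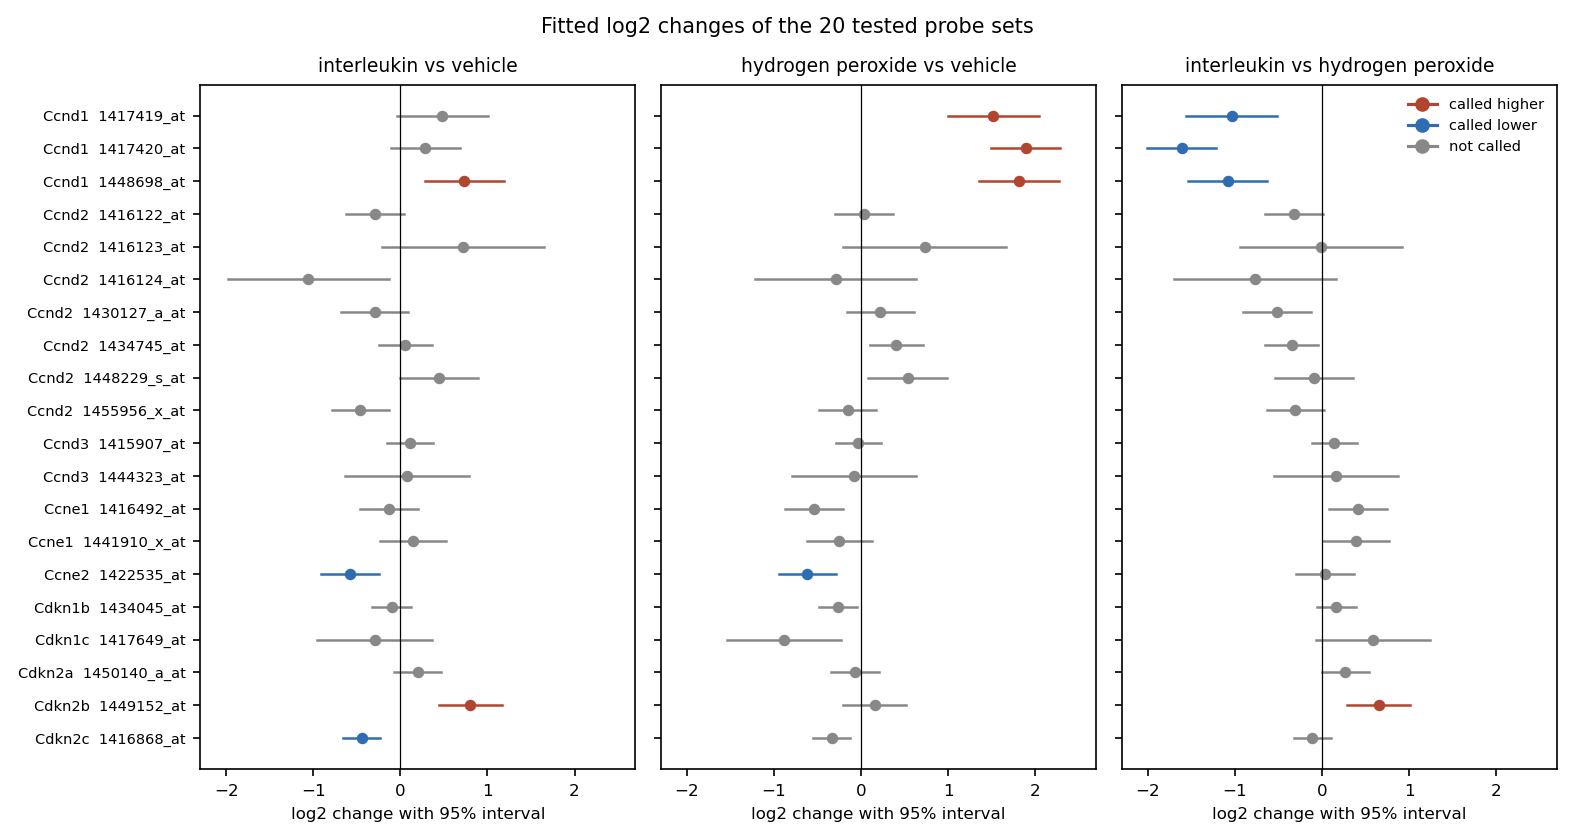
Fitted log2 change with its 95% interval for each of the 20 tested probe sets, for interleukin against vehicle, hydrogen peroxide against vehicle and interleukin against hydrogen peroxide. Red points were called higher, blue points lower, and grey points were not called. Ccnd1 at 1.52 to 1.89 with hydrogen peroxide stands furthest from 0 among the called probe sets, and Cdkn2b at 0.80 is the highest called with interleukin.

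Over all tested members, 4 of 20 were called against vehicle with interleukin (20%), 2 higher and 2 lower. The share of all 22519 tested probe sets called in that comparison was 16.1% (7.58% higher and 8.52% lower), close to the members' share. With hydrogen peroxide 4 of 20 were called, 3 higher and 1 lower, and the 3 higher are all of Ccnd1, beside 5.69% over all tested (3.05% higher and 2.65% lower). Between the treatments 4 of 20 were called, 1 higher and 3 lower with interleukin, the 3 again being Ccnd1, beside 8.82% over all tested (4.95% higher and 3.87% lower).

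Counted by gene, with each gene represented by its brightest probe set, 1 gene was called higher with interleukin (Cdkn2b) and 2 lower (Ccne2 and Cdkn2c), of 10. Over the 10892 genes tested 9.78% were called higher and 6.61% lower. With hydrogen peroxide 1 was called higher (Ccnd1) and 1 lower (Ccne2), beside 4.08% and 2.91% of all genes. Interleukin over hydrogen peroxide had 1 higher (Cdkn2b) and 1 lower (Ccnd1), beside 6.3% and 4.06%. The median log2 change of the tested member probe sets, 7 of which are of Ccnd2, was 0.07 with interleukin and -0.05 with hydrogen peroxide, where all tested probe sets had -0.02 and 0.02.

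**Figure D3:**
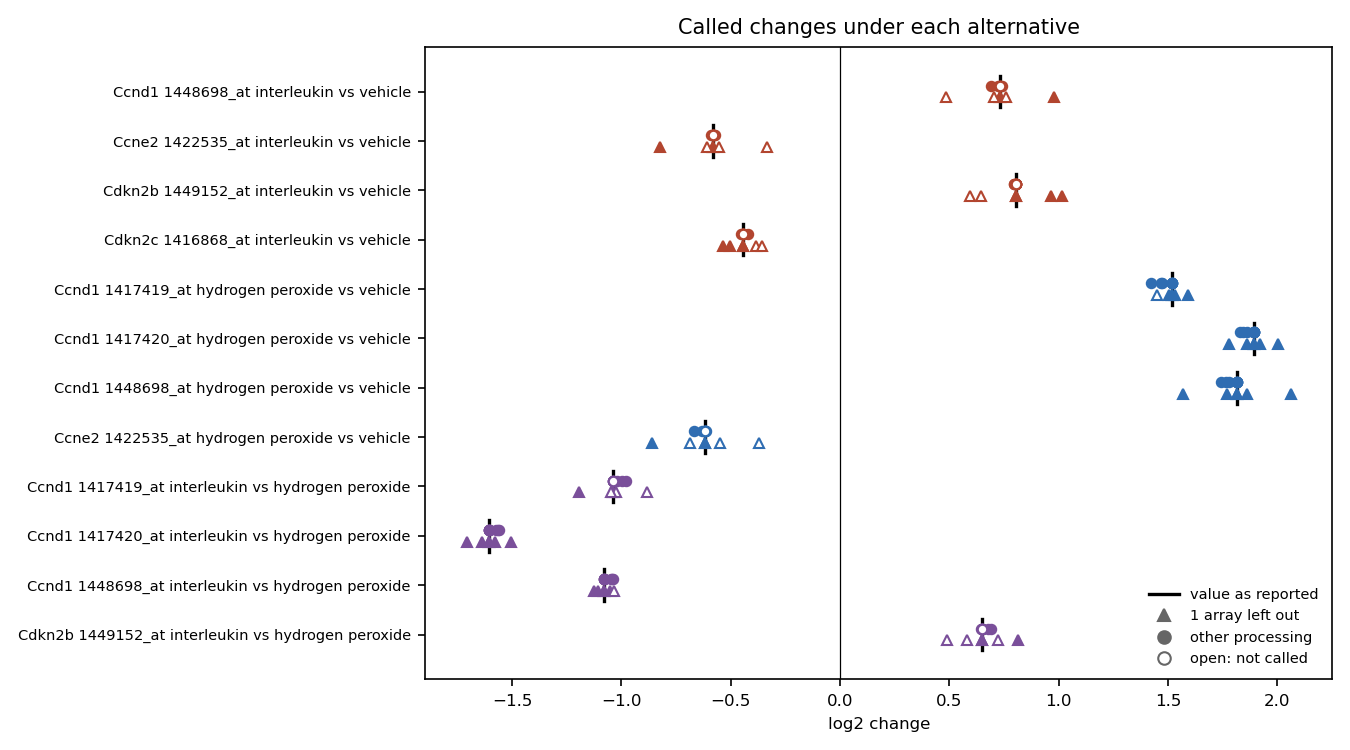
Log2 change of the 12 called differences under each alternative way of processing. Black bars are the values as reported, triangles leave out 1 array, circles are the other alternatives, and open symbols are not called. Every symbol stays on its side of 0, and the lowest Ccnd1 change of 1448698_at with hydrogen peroxide is 1.57.

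Promoter sequences from RefSeq (build GRCm38.p6, 250 bases before to 50 after a start) were given for 6 of the 10 genes, in 9 windows, and not for Ccnd1, Ccnd2, Ccne2 and Cdkn1c. Shown are the windows of Cdkn2b and of the upstream start of its neighbour Cdkn2a, which were called and not called with interleukin, and that of the upstream start of Cdkn2c, which was called lower. All are on the minus strand and are printed 5' to 3' along the gene. Capitals mark matches, on either strand, to a GC box (GGGCGG), to a CRE (TGACGTCA) or to an E2F motif (TTTCCCGC, TTTCGCGC, TTTGCCGC or TTTGGCGC). An AP-1 motif (TGACTCA) was also searched, and no matches overlapped in these windows.
Cdkn2b chr4:89310983-89311282: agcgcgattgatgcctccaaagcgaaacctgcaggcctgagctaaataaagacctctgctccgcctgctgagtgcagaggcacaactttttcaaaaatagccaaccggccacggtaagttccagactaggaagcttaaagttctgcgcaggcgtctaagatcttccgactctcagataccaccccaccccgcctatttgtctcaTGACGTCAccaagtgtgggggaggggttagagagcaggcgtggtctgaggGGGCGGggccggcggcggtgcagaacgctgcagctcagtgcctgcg
Cdkn2a upstream start chr4:89294570-89294869: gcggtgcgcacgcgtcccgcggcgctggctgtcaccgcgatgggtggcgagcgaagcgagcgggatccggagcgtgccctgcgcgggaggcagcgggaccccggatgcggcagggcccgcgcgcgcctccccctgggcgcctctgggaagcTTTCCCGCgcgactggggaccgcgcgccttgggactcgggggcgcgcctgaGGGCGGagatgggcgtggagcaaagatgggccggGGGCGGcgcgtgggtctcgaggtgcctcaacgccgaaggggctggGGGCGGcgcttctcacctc
Cdkn2c upstream start chr4:109666707-109667006: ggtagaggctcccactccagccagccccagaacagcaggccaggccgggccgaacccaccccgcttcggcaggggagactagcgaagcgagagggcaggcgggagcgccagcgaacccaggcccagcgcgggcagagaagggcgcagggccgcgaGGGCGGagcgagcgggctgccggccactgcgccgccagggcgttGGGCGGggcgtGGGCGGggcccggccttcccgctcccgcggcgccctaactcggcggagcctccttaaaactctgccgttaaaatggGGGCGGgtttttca

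The Cdkn2b window held 1 GC box and 1 CRE, whose first base lies at position -46 from the start, and no E2F or AP-1 match. The upstream Cdkn2a window held 3 GC boxes and 1 E2F match, at position -99, and no CRE or AP-1 match. The upstream Cdkn2c window held 4 GC boxes and none of the other motifs. Its downstream window, not shown, held none of the motifs, and the window of Ccne1, which was not called, also held 4 GC boxes. Of 32851 promoter windows of the same length, 35.7% held a GC box, 2.26% one of the E2F letters, 1.79% the CRE and 5.2% the AP-1 motif. The Cdkn2b start lies 16413 bases from the upstream Cdkn2a start and 28840 bases from the downstream one. A match describes these letters and no binding was measured.

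The genes that act with these cyclins and inhibitors were counted by the brightest probe set. Each list count below stands beside the shares over all 10892 genes. These were 9.78% higher and 6.61% lower with interleukin, and 4.08% and 2.91% with hydrogen peroxide. Interleukin over hydrogen peroxide had 6.3% and 4.06%. None of 8 G1 kinases and activators (Cdk2, Cdk4, Cdk6, Cdk7, Ccnh, Mnat1, Cdc25a and Ccnc) was called by limma in the 3 comparisons, and 1 had an unadjusted p under 0.05 in each. That gene was Cdk6 with interleukin (log2 change 1.16 ± 0.37, adjusted p = 0.0561). Its probe set was dim, at 369.5 and 264.9 with interleukin, 246.3 and 201.3 with hydrogen peroxide, and 142.5 and 138 with vehicle. The vehicle arrays lay below the 193.7 of the signal filter, so Cdk6 was tested only through its treated arrays. The gene was Ccnc with hydrogen peroxide (0.59 ± 0.17, adjusted p = 0.0716) and Cdk7 between the treatments (-0.34 ± 0.13, adjusted p = 0.144). Against vehicle 1 was called with interleukin with no variance trend or with 1 probe set per gene, and 1 with hydrogen peroxide with 1 probe set per gene or without interleukin replicate 1. Of the inhibitors outside the set of 10, Cdkn1a (p21) was higher under both treatments and Cdkn2d (p19) was not called. Cdkn1a gave 6213.1 and 5994.7 with interleukin, 13343.3 and 13795.5 with hydrogen peroxide, and 2555.8 and 2546.9 with vehicle. The groups did not overlap, and the direct log2 change of interleukin over hydrogen peroxide was -1.15 ± 0.10 (adjusted p = 5.07e-05).

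Of 13 genes of pocket proteins, E2F and DP factors, 4 were called lower with interleukin (E2f8 at -0.59, E2f6 at -0.48, E2f7 at -0.43 and Tfdp1 at -0.27 on the log2 scale) and 2 with hydrogen peroxide (E2f7 at -0.72 and E2f8 at -0.66). E2f7 and E2f8, called under both treatments, are repressor E2Fs, and Rb1, Rbl1, Rbl2 and E2f1 to E2f5 were not called in either. Of the uncalled genes E2f2 changed most with interleukin (-0.79 ± 0.26, adjusted p = 0.0631). The interleukin count was 0 without either vehicle array, 1 without interleukin replicate 1 and 2 without either hydrogen peroxide array. It was 2 with no filter and 0 with no variance trend. The hydrogen peroxide count was 0 without either vehicle array, without hydrogen peroxide replicate 1 or with no variance trend.

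Most of the genes chosen as known E2F targets fell under both treatments, which share their vehicle arrays. Of 20 tested, 12 were called lower with interleukin and 13 with hydrogen peroxide, and 0 were called higher. Examples were Rfc3, a clamp loader subunit, at -0.87 with interleukin and -0.79 with hydrogen peroxide, and Cdc6, a licensing factor, at -0.80 and -0.67. The ribonucleotide reductase gene Rrm1 was at -0.98 with interleukin and the helicase gene Mcm4 at -0.63 with hydrogen peroxide. The list medians were -0.36 and -0.48, where all genes had 0.03 and 0.06. The interleukin count was 7 without either vehicle array and 6 with no variance trend. The hydrogen peroxide count was 3 without vehicle replicate 1, 2 without vehicle replicate 2, 3 without hydrogen peroxide replicate 1, 6 without hydrogen peroxide replicate 2 and 0 with no variance trend. Between the treatments Mcm6 was called higher and Rrm2 lower with interleukin, and the other 18 were not called. That count of 2 was 0 without either hydrogen peroxide array, without interleukin replicate 2, with no filter or with no variance trend. It was 1 without either vehicle array or interleukin replicate 1.

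**Figure D4:**
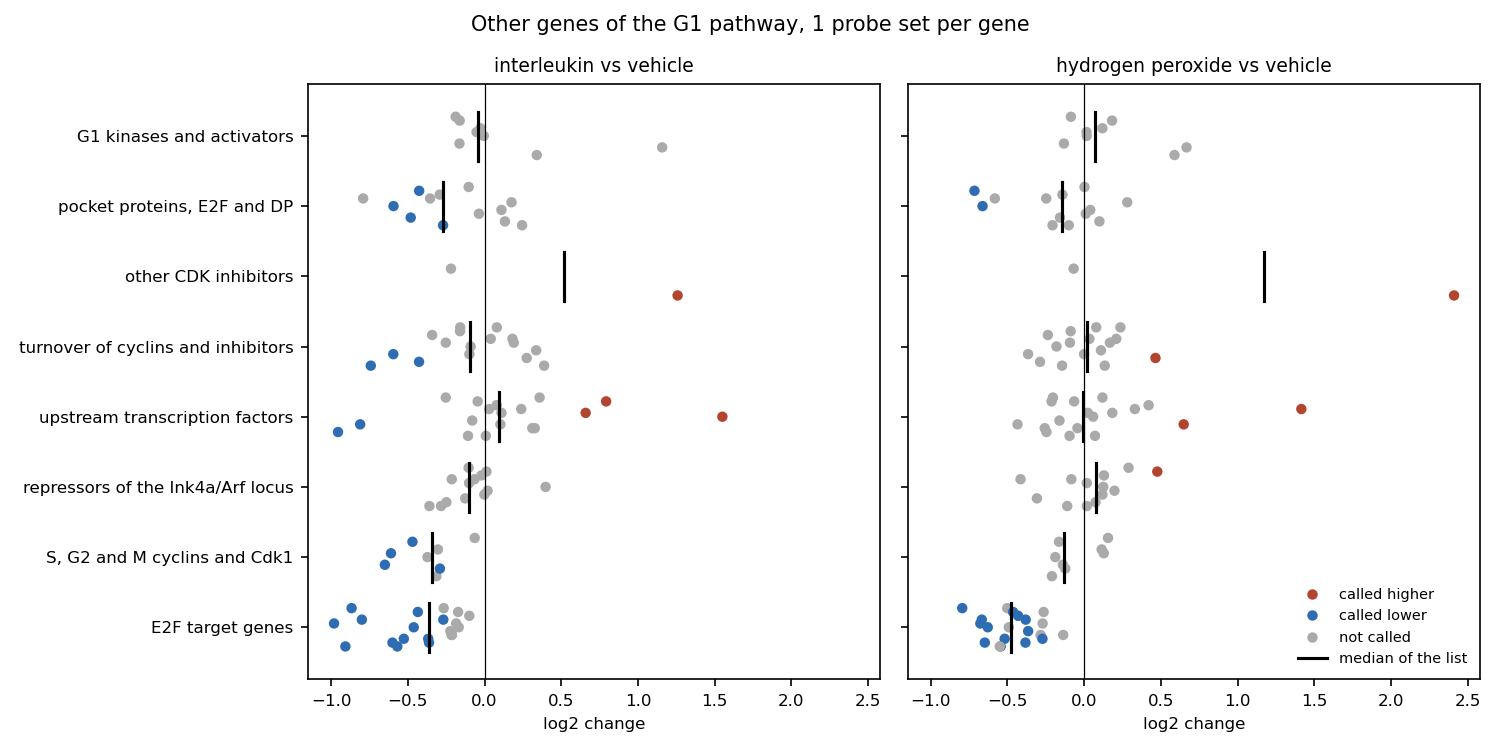
Log2 change against vehicle of the tested genes in 8 lists of the G1 pathway, with interleukin on the left and hydrogen peroxide on the right, 1 point per gene by its brightest probe set and a black bar at each list's median. The E2F target genes lie below 0, with medians of -0.36 and -0.48, and Cdkn1a lies at 1.26 and 2.41.

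Of 8 cyclins and regulators of S, G2 and M phase, 4 were called lower with interleukin (Ccnf at -0.65, Cdc25c at -0.61, Plk1 at -0.47 and Cdk1 at -0.29) and 0 with hydrogen peroxide, where by limma 0 had an unadjusted p under 0.05. In the direct comparison 3 were lower with interleukin (Cdc25c, Ccnb2 and Ccnf). The interleukin count against vehicle was 1 without vehicle replicate 1, 0 without vehicle replicate 2 and 2 without interleukin replicate 1. It was 2 with no filter, 1 with no variance trend and 6 with 1 probe set per gene. The direct count was 1 without either hydrogen peroxide array, without interleukin replicate 1, with no filter or with no variance trend.

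Of 16 genes that govern the turnover of cyclins and inhibitors, 3 were called lower with interleukin, beside 6.61% of all genes. These were Skp2, which targets p27 for degradation (-0.59 ± 0.10, adjusted p = 0.00267), Fbxw7, which targets cyclin E (-0.74 ± 0.15, adjusted p = 0.00669), and Dtl (-0.43 ± 0.11, adjusted p = 0.0229). With hydrogen peroxide 1 was called, Cul4a, higher by 0.46 ± 0.10 (adjusted p = 0.0288), beside 4.08% of all genes called higher. The interleukin count was 1 without vehicle replicate 2 or with no variance trend. The Cul4a call was lost without any 1 of the vehicle and hydrogen peroxide arrays. Of 13 repressors of the Ink4a/Arf locus 0 were called by limma with interleukin, where 3 had an unadjusted p under 0.05, and Kdm2b, a histone demethylase, was called higher with hydrogen peroxide (0.48 ± 0.11, adjusted p = 0.0323). That call was lost without any 1 of the vehicle and hydrogen peroxide arrays, with no filter, with no variance trend and with _s_at probe sets left out. The interleukin count was 1 with 75th percentile centring, with 1 probe set per gene and without interleukin replicate 2.

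Among 18 transcription factors known to act on these genes, 3 were called higher and 2 lower with interleukin, and 2 higher with hydrogen peroxide. Over all genes 9.78% were called higher and 6.61% lower with interleukin, and 4.08% higher with hydrogen peroxide. Egr1, an immediate-early factor, gave 3838.4 and 3555 with interleukin, 8491.3 and 8209 with hydrogen peroxide, and 3153 and 3107 with vehicle. Its hydrogen peroxide arrays lay above all others, at a log2 change of 1.42 ± 0.11 (adjusted p = 0.00019). Fosl1, an AP-1 subunit, was higher by 0.65 ± 0.13 with hydrogen peroxide (adjusted p = 0.0188). With interleukin the AP-1 subunits Junb and Jun changed by 1.55 ± 0.11 (adjusted p = 1.04e-05) and 0.79 ± 0.19 (adjusted p = 0.0168), and Klf4 and Mycn by -0.96 ± 0.09 (adjusted p = 8.88e-05) and -0.81 ± 0.18 (adjusted p = 0.0112). The interleukin count of 5 was 3 without vehicle replicate 1, 2 without vehicle replicate 2, 2 without interleukin replicate 1 and 3 with no variance trend. The hydrogen peroxide count of 2 was 1 without any 1 of the vehicle and hydrogen peroxide arrays, and 1 with no variance trend.

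The genes whose pattern over the 6 arrays was most like that of a called member were found by the root mean square difference of mean-centred log2 signal, among 10891 genes. For Ccnd1 (1417420_at) they were Egr3 (0.13), Etv4 (0.13) and Reep6 (0.15), where the median over all genes was 0.84. For Cdkn2b they were Serpinb6b (0.042), Itga7 (0.080) and Tnfaip6 (0.084), against a median of 0.42. For Ccne2 they were Gsc (0.069), Lhx2 (0.091) and 2810408B13Rik (0.096), against 0.38. These values describe likeness over 6 arrays only.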

How the data were processed

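The deposited values are intensities on a linear scale, 1 signal per probe set, which the authors made with MAS5 per the submitters' processing notes. No version of MAS5 is named in the sources used here. RNA from 2 separate cultures per group was hybridised, per the series description. Signals were log2 transformed with no pseudocount. After 64 control probe sets were left out, the 22519 at or above the median mean log2 signal were tested in R 4.3.3 by limma 3.58.1 (a mean per group fitted with lmFit over the 6 arrays, eBayes with a variance trend), with Benjamini-Hochberg adjustment over them and a threshold of 0.05. Means rest on 2 arrays per group, and their number limits the precision. Standard errors and intervals use a spread pooled over all 6 arrays and drawn toward the variance trend of all tested probe sets. They do not measure the spread of the compared groups alone. Symbols were updated by gene identifier through a RefSeq table (34754 of 34958 probe sets with 1 symbol), while 932 had several symbols and 9211 had none listed. All probe sets of the 10 genes are named, with up to 4 called genes of smallest p per pathway list and 3 genes of like pattern for each of 3 members. The members and lists were chosen with earlier results of these data known. Alternatives were other normalizations, a pseudocount of 32, other filters, no variance trend, fewer arrays or probe sets, a replicate block, and leaving out each array. The steps were tested on simulated data.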

Additional observations from a re-analysis of the deposited data

How the results depend on the processing

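With 2 arrays per group many calls rest on single arrays, dim probe sets have wide intervals, and no detection call was used. Over the tested members 819 of 882 values under an alternative kept their direction and their side of the threshold, 32 lost the call and 12 gained one. The other 19, called neither as reported nor under that alternative, changed sign, and 0 values called in either did. The members called with interleukin against vehicle numbered 4, and 0 with no variance trend (limma, where 6 had an unadjusted p under 0.05), and 2 to 4 with 1 array left out. With hydrogen peroxide against vehicle they numbered 4, 1 under a stricter filter, which removes all 3 Ccnd1 probe sets and leaves Ccne2, and 3 to 5 with 1 array left out. Between the treatments they numbered 4, 2 with no filter, 1 with a stricter filter, 2 with 1 probe set per gene, and 1 to 6 with 1 array left out. Over all probe sets, interleukin against vehicle gave 3627 calls, 1783 with no variance trend, 2128 with 1 probe set per gene and 1563 to 3599 with 1 array left out. Hydrogen peroxide against vehicle gave 1282, 762 with no filter, 57 with no variance trend and 242 to 1767 with 1 array left out. The direct comparison gave 1987, 716 with no variance trend and 852 to 1928 with 1 array left out. The cause of these differences was not tested. With the replicate block the members called were 4 in each comparison and all probe sets called were 3342, 1170 and 1756. Deviations of same-numbered arrays correlated at 0.0535 (interleukin and vehicle), 0.107 (hydrogen peroxide and vehicle) and -0.129 (interleukin and hydrogen peroxide), so the numbers were not taken to pair the samples.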
